A study of Rattus norvegicus with 4 samples.

Results

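The cytochrome P450 genes of families 1 to 3 were examined in liver RNA of lean and obese WNIN/Ob rats, a rat strain in which lean and obese animals both occur. The genes were chosen by name, with earlier results of these data known. They are all genes whose platform symbol is Cyp1, Cyp2 or Cyp3 followed by a letter and a number, 39 of the 14506 genes measured. They comprise 3 genes of family 1, 31 of family 2 and 5 of family 3, and 1 of them, Cyp2s1-ps1, is a transcribed pseudogene in the RefSeq gene table of assembly GRCr8. Each gene was read by 1 probe set, and no probe set with several symbols carried a name of these families.

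All animals were untreated males aged 4 months, kept on stock diet, and the alleles behind the phenotypes are not given in the labels. RNA from 4 lean rats made up the lean pool and RNA from 4 obese rats the obese pool, and each pool was hybridised to 2 Affymetrix Rat Gene ST arrays, an original and a technical replicate. Each phenotype is thus 1 pooled sample, so there is no replicate check across animals and no p-value, and every spread given is that between the 2 arrays of a pool. The series addresses baseline expression in the lean and obese phenotypes.

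P450 enzymes of families 1 to 3 are haem proteins of the endoplasmic reticulum that oxidise drugs, pollutants, steroids and fatty acids with electrons passed on by P450 reductase and cytochrome b5. Many are induced through nuclear receptors or the aryl hydrocarbon receptor (AhR), with CAR (Nr1i3) and PXR (Nr1i2) acting on Cyp2b and Cyp3a genes and AhR on Cyp1 genes. In rat liver several Cyp2a, Cyp2c and Cyp3a genes are also sex-dependent, because the pattern of growth hormone secretion differs between males and females and is read through STAT5.

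Values are log2 of the deposited intensity. The 2 arrays of a pool were averaged to give its level, and a difference is obese minus lean. A gene was counted by the 1.5-fold rule when its pools differed at least by that factor, at least 0.25 separated the closest lean and obese arrays and the higher pool reached 5.48, the median level of all genes. The 2-fold rule asked for a gap of 0.5. A fold is followed by its range when each lean array is set against each obese array, 4 pairs in all, which covers measurement error only.

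Of the P450 set, 4 genes, all of them known as male-predominant, were lower in the obese pool and 3 were higher, while 32 passed neither direction of the 1.5-fold rule. The 4 lower genes, Cyp3a18, Cyp3a2, Cyp2a2 and Cyp2c11, are 10.3% of the set, against 2.43% of all genes. The 3 higher genes, Cyp2b2, Cyp2r1 and Cyp2a1, are 7.69% of the set, against 2.19% of all genes. That count was 1 with cyclic loess, with quantile normalisation, with the level filter at the upper quartile, on the technical replicate arrays alone, and without either the obese original or the lean technical replicate array. By the 2-fold rule 2 genes were lower (5.13%, against 1.48% of all genes) and 1 was higher (2.56%, against 0.572%). The higher gene is Cyp2b2, which reached the level filter in the obese pool alone. Nothing is therefore read from that share or from the share of 1.5-fold higher genes, which also counts Cyp2b2. Over the 39 genes the median difference was 0.10, beside 0.03 for all genes, with 23 above 0 and 16 below, against 8259 above and 6245 below over all genes. The median of the 39 was 0.05 to 0.07 with any 1 array left out and 0.03 with cyclic loess. The lean and the obese arrays did not overlap for 32 of the 39 genes (82.1%), against 46.0% of all genes. The median lean level was 8.80 for the 39 genes and 5.51 for all genes. Both pools lay below the level filter for 11 of the 39 genes and for 6951 of all 14506. The shares of all genes given here were not matched for level. Cyclic loess between the arrays moved the split of all genes past the 1.5-fold rule from 317 higher and 352 lower to 227 higher and 400 lower. Among the 29 other P450 genes of the array, 3 were 1.5-fold higher and 1 lower.

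The SD over the 39 genes of the difference between arrays was 0.13 within the lean pool and 0.18 within the obese pool, and between arrays of different pools it was 0.72 to 0.79. The largest gap within a pool was 0.61, for Cyp2b1 on the obese arrays. For 11 of the 39 genes both pools lay below the level filter, so that these genes are not shown to be above background, and they could not pass either rule.

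**Figure D1:**
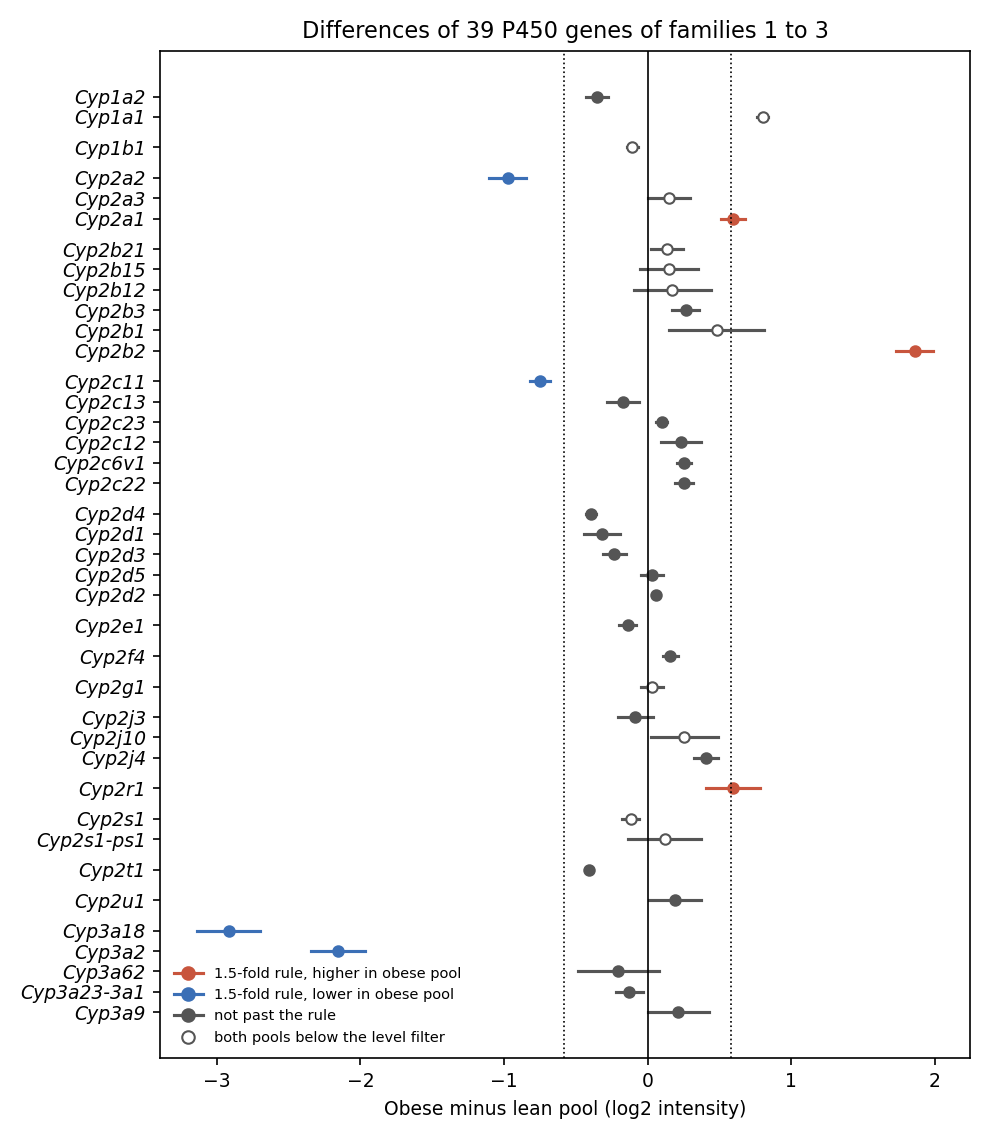
Obese minus lean difference (log2 intensity, x axis) of each of the 39 P450 genes, by subfamily. Points are differences of pool means, bars span the 4 array pairs, dotted lines mark a factor of 1.5 and open points are genes with both pools below the level filter. Cyp3a18 and Cyp3a2 stand farthest to the left, at -2.92 and -2.16, and Cyp2b2 farthest to the right, at 1.86.

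The male-predominant P450 genes were lower in the obese pool, 4 of the 5 by the 1.5-fold rule, with a median difference of -0.97. Like the P450 set, this list was chosen with earlier results of these data known. These enzymes hydroxylate steroids, and their transcripts are abundant in adult male rat liver. Cyp3a18 read 11.35 and 11.46 on the lean arrays and 8.65 and 8.33 on the obese arrays, a fold of 7.55 lower (6.49 to 8.79). Cyp3a2, a testosterone hydroxylase, read 12.00 and 12.17 against 10.04 and 9.82, which is 4.46-fold lower (3.91 to 5.08). The pools were far apart for both genes, the closest lean and obese arrays being 2.70 apart for Cyp3a18 and 1.97 for Cyp3a2 on the log2 scale.

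The other male-predominant genes differed less. Cyp2a2 stood at 9.81 and 9.89 in the lean pool and at 8.96 and 8.79 in the obese pool, 1.96-fold lower (1.80 to 2.14). Cyp2c11, the principal male-specific P450 of rat liver and a testosterone hydroxylase, read 12.48 and 12.53 against 11.71 and 11.80 and was 1.68-fold lower (1.60 to 1.76). Both genes kept their pools apart on every array. Cyp2c13 read 12.57 and 12.59 on the lean arrays and 12.51 and 12.31 on the obese arrays, a difference of -0.17 (-0.28 to -0.06) that passed no rule. The summed intensity of the 5 genes was 19418 and 20470 on the lean arrays and 11161 and 10312 on the obese arrays. In bulk tissue, fewer cells of a type and less RNA per cell cannot be told apart.

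The 250 bases before the RefSeq starts of Cyp3a2, Cyp3a23-3a1 and Cyp3a18 (assembly GRCr8) are shown because the first pair are direct neighbours with similar upstream sequence whose RNA differed unequally, and Cyp3a18 had the lowest difference of the set. Capitals mark 2 copies of AGNTCA in the same direction with 3 bases between them, on either strand, a spacing bound by PXR with its partner RXR, and the sequence CAAAGTCCA, which resembles sites of the liver factor HNF4A. Cyp3a2 lies at chr12:14343858-14344107 on the minus strand, Cyp3a23-3a1 at chr12:14398804-14399053 on the minus strand and Cyp3a18 at chr12:13994062-13994311 on the plus strand. Each is printed 5′ to 3′ and ends at the base before the start.
Cyp3a2: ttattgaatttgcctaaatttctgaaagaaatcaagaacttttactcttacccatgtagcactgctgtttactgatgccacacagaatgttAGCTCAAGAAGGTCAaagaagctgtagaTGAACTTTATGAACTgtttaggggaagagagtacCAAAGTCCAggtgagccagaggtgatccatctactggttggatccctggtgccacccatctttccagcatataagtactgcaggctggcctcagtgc
Cyp3a23-3a1: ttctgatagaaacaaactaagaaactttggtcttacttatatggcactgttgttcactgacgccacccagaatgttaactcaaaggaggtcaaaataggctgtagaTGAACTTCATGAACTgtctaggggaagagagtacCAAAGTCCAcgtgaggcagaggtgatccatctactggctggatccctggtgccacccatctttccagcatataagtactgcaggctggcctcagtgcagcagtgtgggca
Cyp3a18: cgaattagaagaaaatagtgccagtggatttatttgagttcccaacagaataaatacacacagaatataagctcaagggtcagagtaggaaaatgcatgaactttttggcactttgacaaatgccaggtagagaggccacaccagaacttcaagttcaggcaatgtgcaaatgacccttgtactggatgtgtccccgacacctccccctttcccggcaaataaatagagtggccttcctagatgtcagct

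In the aligned part, 237 columns long, the windows of Cyp3a2 and Cyp3a23-3a1 were 87.8% identical, with 208 matches, 23 mismatches and 6 gap columns. The repeat of AGNTCA with 3 bases between occurred in 16 of 27457 windows of all genes (0.0583%), and of the 35 P450 windows at hand in these 2 alone, with a further copy in Cyp3a2. CAAAGTCCA occurred in 91 windows (0.331%) and again in Cyp3a2 and Cyp3a23-3a1 among the P450 genes. Neither sequence was in the Cyp3a18 window. The motifs were chosen after the windows had been read, so these shares are no test. As the windows of Cyp3a2 and Cyp3a23-3a1 are so alike, their matches are not independent. The same repeat with 4 bases between, a spacing bound by CAR and PXR, was in 0 of the 35 and in 15 of all windows (0.0546%). TTCNNNGAA, the core that STAT5 binds, was in the windows of Cyp2j4 and Cyp2t1, beside 7.52% of all windows. GCGTG, the core bound by AhR, was in 6 of the 35, beside 27.2% of all windows, and TATAAA in 12, beside 13.1%. Both strands were searched, the marked sequences do not overlap, and a match is a description of letters in this window.

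Cyp3a23-3a1, the PXR-inducible Cyp3a gene of rat liver, did not share the difference of its neighbour Cyp3a2. It read 10.74 on both lean arrays and 10.71 and 10.52 on the obese arrays, a difference of -0.13 (-0.22 to -0.03). No other protein-coding gene lies between Cyp3a2 and Cyp3a23-3a1 in the RefSeq table. Of the remaining family 3 genes, Cyp3a9, which is female-predominant, read 8.04 and 7.92 on the lean and 8.35 and 8.04 on the obese arrays, a difference of 0.22 with its pools almost touching. Cyp3a62 read 5.78 and 5.87 on the lean and 5.86 and 5.39 on the obese arrays, a difference of -0.20 with overlapping pools. The family thus held 2 genes past the rule in 1 direction and 3 within a factor of 1.5.

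Besides Cyp2c11, the other 5 Cyp2c genes stayed within a factor of 1.5, and the arrays of the pools did not overlap for any of the 6. That held for 46.0% of all genes, whose median lean level was 5.51, against 12.07 for the Cyp2c genes. Cyp2c12, the female-specific steroid sulphate hydroxylase, read 8.83 and 8.86 on the lean and 9.20 and 8.96 on the obese arrays, a difference of 0.23 (0.09 to 0.37). Cyp2c genes are similar in sequence, and whether these probe sets also read RNA of related genes was not tested. Its direct neighbour in the RefSeq table is the male-predominant Cyp2c13, at -0.17. Cyp2c22 and Cyp2c6v1 differed by 0.25 each, and Cyp2c23, an arachidonic acid epoxygenase of liver and kidney, by 0.10.

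**Figure D2:**
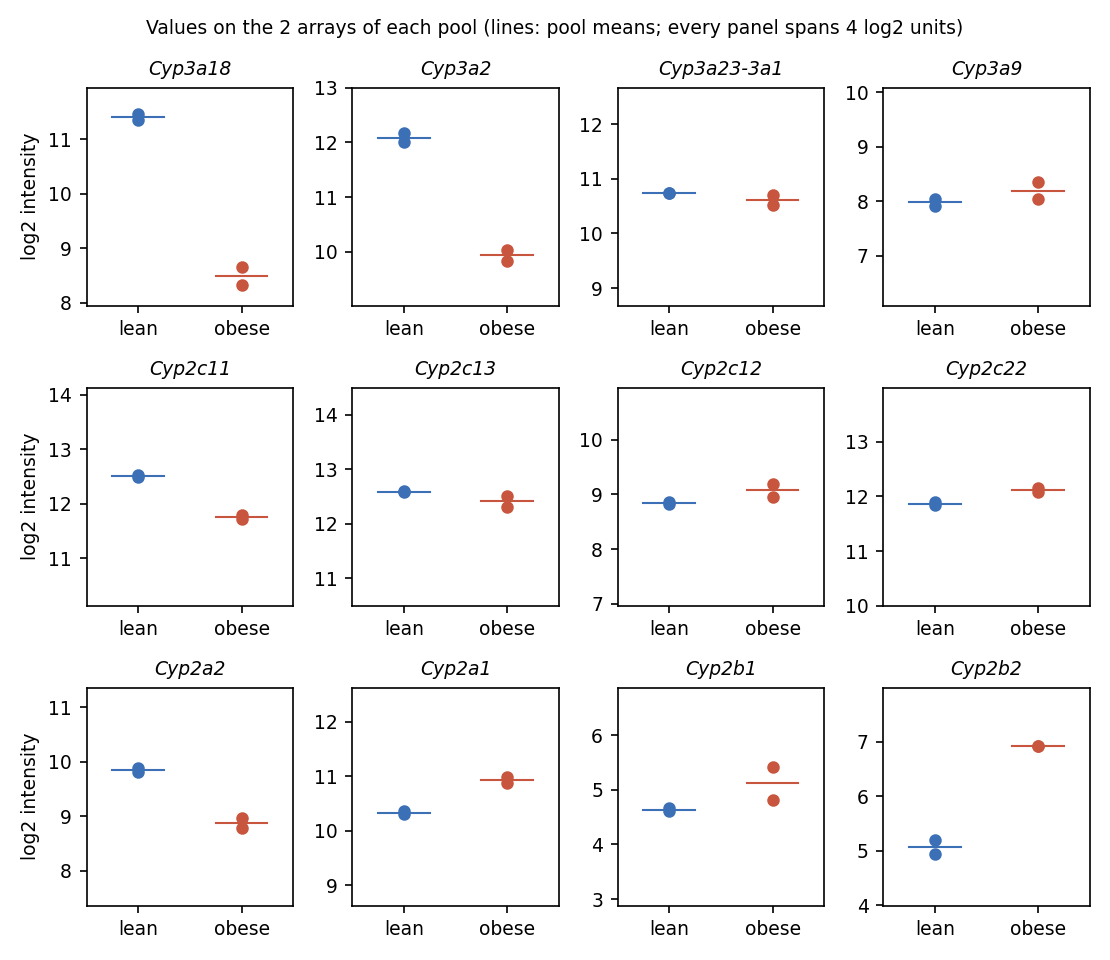
Log2 intensity (y axis) of 12 P450 genes on the 2 lean (blue) and the 2 obese (red) arrays, with lines at the pool means and the same span of 4 log2 units in every panel. Cyp3a18, Cyp3a2, Cyp2c11 and Cyp2a2 are lower on both obese arrays, Cyp2a1 and Cyp2b2 are higher on both, and Cyp3a23-3a1 at -0.13 and Cyp2c13 at -0.17 lie close together.

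Cyp2a1 and Cyp2a2 differed in opposite directions, and they are direct neighbours with no protein-coding gene between them in the RefSeq table. Cyp2a1, a testosterone hydroxylase with higher expression in females, read 10.36 and 10.30 on the lean arrays and 10.98 and 10.87 on the obese arrays, 1.51-fold higher (1.42 to 1.60). Cyp2a2, as given above, was at -0.97, so that the pair lay 1.57 apart in their differences. Cyp2a1 sat at the edge of the rule. Its difference of 0.60 became 0.54 when the obese original array was left out, 0.57 without the lean technical replicate array, 0.52 with cyclic loess and 0.56 with quantile normalisation, each below the 0.58 that a factor of 1.5 equals. The female-predominant list held Cyp2a1, Cyp2c12 and Cyp3a9, which all had differences above 0 with a median of 0.23, and Cyp2c7, which was not measured under that symbol. The third Cyp2a gene, Cyp2a3, which is best known from nasal tissue and lung, lay below the level filter in both pools, at 3.83 and 3.98.

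The Cyp2b genes include the classic phenobarbital-inducible targets of CAR, and all 6 had differences above 0. Over all genes 8259 of 14506 lay above 0. Of the 6, 4 lay below the level filter in both pools, and the arrays of the pools overlapped for Cyp2b12 and Cyp2b15. Their median was 0.22, and Cyp2b2 alone passed the rule. It read 5.19 and 4.93 on the lean arrays and 6.92 on both obese arrays, 3.63-fold higher (3.32 to 3.97), and as its lean level of 5.06 lay below the level filter, the fold has no firm size. Its inducible sister gene Cyp2b1 read 4.61 and 4.66 in the lean pool and 5.43 and 4.81 in the obese pool. That difference of 0.48 ran from 0.15 to 0.81 over the array pairs, with both pools below the level filter. It was 0.17 with the obese original array left out and 0.79 with the obese technical replicate left out. Of the 3 measured CAR- and PXR-inducible P450 genes, Cyp2b1, Cyp2b2 and Cyp3a23-3a1, 1 was thus higher and 0 lower.

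The windows before the starts of Cyp2b1 (chr1:90645869-90646118, plus strand) and Cyp2b2 (chr1:90722031-90722280, plus strand) are given, in GRCr8 and without marked bases. They show how alike the upstream sequence of these genes is beside their unequal differences.
Cyp2b1: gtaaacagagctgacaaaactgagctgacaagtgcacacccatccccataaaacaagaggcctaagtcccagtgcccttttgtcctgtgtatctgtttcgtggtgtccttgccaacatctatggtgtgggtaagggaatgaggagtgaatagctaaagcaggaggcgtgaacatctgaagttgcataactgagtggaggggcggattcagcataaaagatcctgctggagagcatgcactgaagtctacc
Cyp2b2: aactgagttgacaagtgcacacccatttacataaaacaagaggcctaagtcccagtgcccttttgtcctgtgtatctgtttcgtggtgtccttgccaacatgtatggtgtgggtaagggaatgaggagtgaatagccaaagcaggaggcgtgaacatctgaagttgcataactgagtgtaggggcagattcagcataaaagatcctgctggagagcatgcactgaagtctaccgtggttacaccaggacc

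Over 233 aligned columns the windows were 96.6% identical, with 225 matches and 8 mismatches. A probe set can pick up RNA of both genes where their transcripts are alike. These windows lie before the starts, so they do not show that, and the probe sequences were not examined. Cyp2b3, which is not induced by phenobarbital, was at 10.56 and 10.72 on the lean arrays and 10.92 and 10.89 on the obese arrays, a difference of 0.27 (0.17 to 0.36). Cyp2b12, Cyp2b15 and Cyp2b21 had differences of 0.17, 0.15 and 0.13 and lay below the level filter in both pools.

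The 3 AhR-inducible Cyp1 genes passed no rule and had a median difference of -0.11. Cyp1a2, the constitutive hepatic member that metabolises caffeine and aromatic amines, read 11.13 and 11.16 on the lean arrays and 10.85 and 10.73 on the obese arrays, a difference of -0.35 (-0.43 to -0.28). Cyp1a1, its neighbour and the most inducible AhR target, read 3.37 on both lean arrays and 4.21 and 4.14 on the obese arrays. That is a difference of 0.80 (0.76 to 0.84), but both levels lay below the level filter. With an offset of 16 added to the intensities it was 0.37. Cyp1b1 read 3.75 and 3.76 against 3.68 and 3.61, also below the filter, a difference of -0.11.

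Cyp2r1, a vitamin D hydroxylase of liver, was the remaining gene past the rule. It read 6.36 and 6.29 on the lean arrays and 7.07 and 6.77 on the obese arrays, 1.51-fold higher (1.33 to 1.72). Like Cyp2a1 it sat at the edge. The difference of 0.60 became 0.45 when the obese original array was left out, 0.56 without the lean technical replicate array, 0.53 with cyclic loess and 0.51 with an offset of 16.

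The other members of family 2 stayed within a factor of 1.5. Nearest to the threshold on the higher side was Cyp2j4, at 8.00 and 7.99 on the lean and 8.47 and 8.32 on the obese arrays, a difference of 0.41. On the lower side it was Cyp2t1, at 8.82 and 8.84 against 8.43 and 8.42, a difference of -0.40. Both had pools that did not overlap, as had 46.0% of all genes. Cyp2j enzymes epoxidise arachidonic acid, and Cyp2j3 and Cyp2j10 had differences of -0.08 and 0.26. The Cyp2d genes, which oxidise debrisoquine and many amine drugs, ran from -0.39 for Cyp2d4 over -0.32 for Cyp2d1, -0.23 for Cyp2d3 and 0.03 for Cyp2d5 to 0.06 for Cyp2d2. The upstream windows of Cyp2d3 and Cyp2d5 were 97.2% identical, which does not show how alike their transcripts are. Whether a Cyp2d probe set reads more than its own gene was not tested. Cyp2e1, the ethanol- and acetone-metabolising P450, read 12.80 and 12.85 in the lean pool and 12.72 and 12.65 in the obese pool, a difference of -0.14 (-0.20 to -0.08). Cyp2f4 and Cyp2u1 were at 0.16 and 0.19. Cyp2g1, Cyp2s1 and Cyp2s1-ps1 lay below the level filter, with differences of 0.03, -0.12 and 0.12.

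Among the receptors and regulators of P450 genes, 2 of 20 measured genes were 1.5-fold lower and 0 higher, with a median of -0.03. Nr1i3, which encodes CAR, read 7.97 and 8.01 on the lean arrays and 7.03 and 6.85 on the obese arrays, 2.07-fold lower (1.91 to 2.24). Ahr, the receptor for dioxin-like compounds, read 7.66 and 7.68 against 7.28 and 6.87 and was 1.51-fold lower (1.30 to 1.75), a difference of -0.59. It did not pass the rule without the obese technical replicate array (-0.39), with each array centred on its median (-0.55) or with an offset of 16 (-0.54). Nr1i2, which encodes PXR, had a difference of 0.13, and Hnf4a and Rxra had differences of 0.11 and -0.03.

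In growth hormone to STAT5 signalling 2 of the 4 measured feedback inhibitors of the SOCS family, Socs2 and Cish, were lower in the obese pool. Socs2 read 8.53 and 8.48 on the lean and 6.50 and 6.13 on the obese arrays, 4.56-fold lower (3.96 to 5.26). Cish read 7.58 and 7.75 against 5.97 and 5.64, 3.63-fold lower (3.05 to 4.31). The other 2 passed no rule and had differences above 0, Socs3 at 0.50 (0.46 to 0.54) and Socs1 at 0.10 with overlapping pools. The receptor and transducer genes themselves passed no rule, with Ghr at 0.39, Jak2 at -0.07, Stat5a at 0.11 and Stat5b at -0.22, and Igf1 was at -0.03. Prlr, the prolactin receptor, which is female-predominant in rat liver, was 3.52-fold higher (3.05 to 4.06), and Trim24, a nuclear receptor cofactor, 1.85-fold higher (1.56 to 2.21), both from lean levels below the level filter. The list of 12 measured genes thus had 2 past the rule in each direction and a median of 0.10.

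The electron supply and the haem pathway of P450 enzymes held 1 gene past the rule in each list. Por, the reductase that all microsomal P450 enzymes depend on, had a difference of -0.15 (-0.19 to -0.11), and the cytochrome b5 gene Cyb5a was at -0.29. Cyb5b, the b5 form of the mitochondrial outer membrane, was 1.61-fold higher (1.49 to 1.75), and the other 4 electron donor genes passed no rule. Alas1, the rate-limiting enzyme of hepatic haem synthesis, had a difference of 0.30 and passed no rule. Alas2, its erythroid counterpart, which reports on red cell precursors and not on hepatocytes, was 2.53-fold lower (2.35 to 2.72), alone among the 8 measured genes of haem synthesis. The haem oxygenase gene Hmox1 was 2.40-fold higher (2.25 to 2.56), while the other 3 genes of haem degradation lay between -0.08 and 0.09.

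Targets that the same receptors control outside the P450 families went both ways. Of 12 measured CAR and PXR targets, Gsta3, a glutathione transferase, was 2.82-fold higher (2.25 to 3.52) and Aldh1a1, a retinaldehyde dehydrogenase, 1.82-fold higher (1.63 to 2.03). Slco1a4, an organic anion carrier, was 2.43-fold lower (2.22 to 2.66), and the list's median was -0.03. Of 3 measured AhR targets Nqo1, a quinone reductase that is also an Nrf2 target, was 2.00-fold higher (1.77 to 2.27). The other 2 lay below the level filter in both pools and could not pass the rule. The P450 enzymes of xenobiotic metabolism are densest around the central vein. Of 9 pericentral genes only Slc1a2, a glutamate carrier, passed the rule, at 1.85-fold lower (1.68 to 2.03), with a median of -0.08. Both pools lay below the level filter for 2 of these 9 genes. Of 10 periportal genes Hsd17b13, a lipid droplet protein, was 1.61-fold higher and Sds, the serine dehydratase, 1.90-fold lower, with a median of 0.23.

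**Figure D3:**
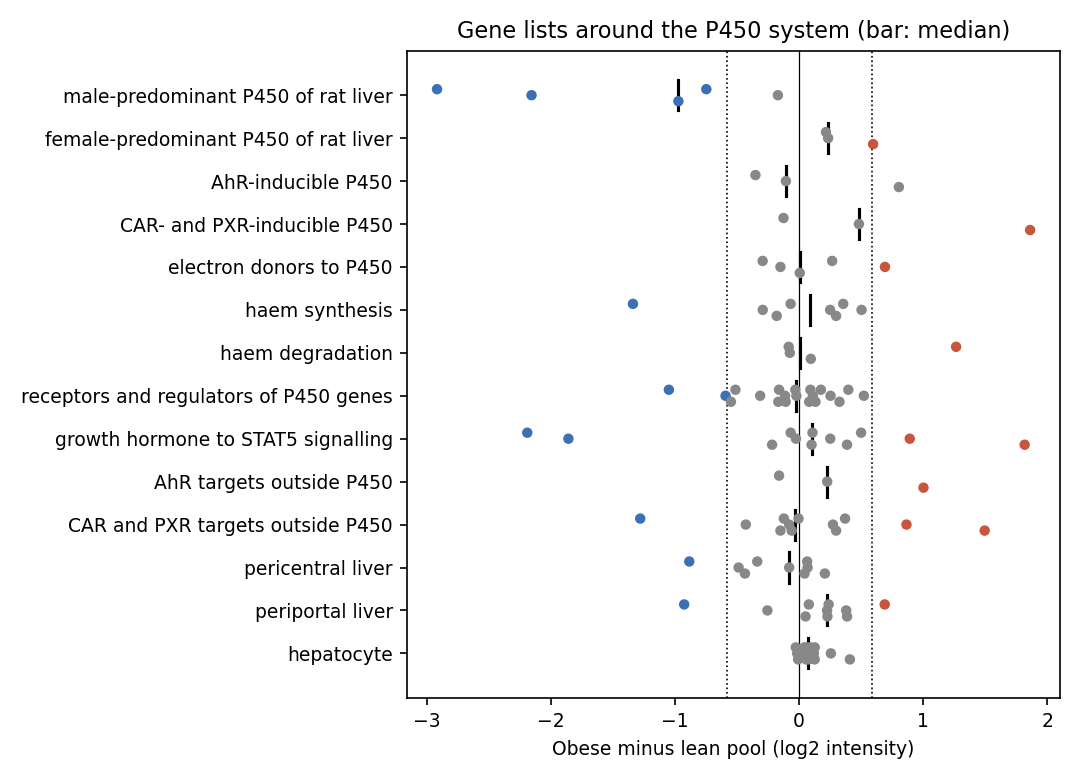
Obese minus lean difference (log2 intensity, x axis) of each measured gene of 14 lists (rows), in red where 1.5-fold higher, in blue where 1.5-fold lower and in grey otherwise, with the median as a bar and dotted lines at a factor of 1.5. The 5 male-predominant P450 genes all lie left of 0 with a median of -0.97, while the 15 hepatocyte genes lie between -0.03 and 0.41.

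Markers of hepatocytes, the cells that carry most P450, differed little between the pools, and markers of skeletal muscle differed greatly. Of 15 hepatocyte genes 0 passed the 1.5-fold rule, and their median difference was 0.07. All 16 measured skeletal muscle genes were 2-fold lower in the obese pool, with a summed intensity of 34507 and 35788 on the lean arrays and 532 and 556 on the obese arrays. Their part in the P450 differences was not tested. No macrophage marker of 11 passed the rule (median -0.25), and 0 of 7 lymphocyte, 0 of 5 endothelial, 0 of 5 bile duct and 0 of 5 adipocyte markers did, with medians of -0.10, -0.09, 0.03 and -0.33. Both pools lay below the level filter for 5 of the lymphocyte, all 5 bile duct and 4 of the adipocyte markers. Those markers could not pass the rule whatever their difference. Of 8 stellate cell and fibroblast markers 3 were lower, Des, which muscle also expresses, Dcn and Col1a1, with a median of -0.44. The part of these cells was not tested either.

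The 4 lower P450 genes passed the 1.5-fold rule under each of the 16 other settings tried. Their differences ranged from -3.14 to -2.70 for Cyp3a18, from -2.34 to -1.97 for Cyp3a2, from -1.10 to -0.85 for Cyp2a2 and from -0.82 to -0.70 for Cyp2c11. The higher genes were less firm. Cyp2b2 passed in 15 of the 16 settings, with differences of 1.47 to 1.99, Cyp2a1 in 11 and Cyp2r1 in 9. Some of the settings could not remove a call. Leaving out the level filter or the gap only loosens the rule. The probe set and gene name settings left the values of the P450 genes unchanged. For the 4 lower genes every array pair lay past a factor of 1.5, so using fewer arrays could not remove their calls. Their lean levels of 9.85 to 12.51 also lay above the upper quartile filter of 7.09. For these genes only the normalisation, centring and offset settings could have changed a call.

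**Figure D4:**
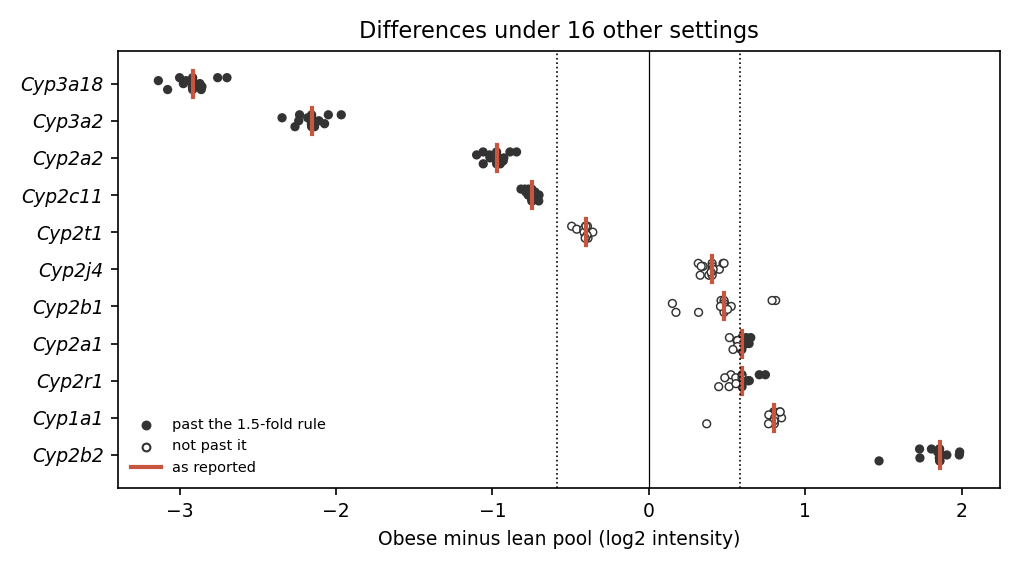
Obese minus lean difference (log2 intensity, x axis) of 11 P450 genes under 16 other settings (points, filled where past the 1.5-fold rule) and as reported (red bars), with dotted lines at a factor of 1.5. The points of Cyp3a18, Cyp3a2, Cyp2a2 and Cyp2c11 are all filled, those of Cyp2a1 and Cyp2r1 fall on both sides of the line, and those of Cyp1a1 are open in 15 settings.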

How the data were processed

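Liver RNA pools were measured on 4 arrays, and arrays were grouped by the phenotype in the labels. RMA is named in the submitters' processing notes, and the deposited table holds linear-scale intensity values, judged so from their range. The step to a linear scale, the software version and the genome build are not given in the sources used here. Values ran from 2.31 to 14288, and log2 was taken here with no further normalisation. No scanner file was used here, nor any detection call.

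Of 29214 probe sets 15310 had 1 symbol in the platform annotation, 323 had several and 13581 were not listed. The probe set with the highest mean stood for each gene. All 39 P450 gene identifiers were found in the RefSeq table of GRCr8, which changed 0 symbols, and 35 had an upstream window there. Windows were aligned in Biopython 1.88 with free end gaps, and identities were kept over at least 200 columns.

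With 1 pool per phenotype no test was made. The rules were checked on simulated arrays with known folds of 2 or more, put into genes at or above the median level. Folds near 1.5, changed genes at lower levels and differences between animals were not simulated. Named are the genes past the 1.5-fold rule, the role lists, the genes nearest the threshold and the main receptors and reductase, and every other P450 gene by its value. Genes named beyond this rule are Hnf4a, Rxra, Cyb5a, Alas1, Ghr, Jak2, Stat5a, Stat5b, Socs1, Socs3 and Igf1, chosen after their values were seen. The P450 genes, lists and rules were chosen with earlier results of these data known, and the sequence motifs after the windows had been read. Alternatives changed the normalisation (cyclic loess and quantile in limma 3.58.1, centring), offset, level filter, gap, probe set rule, gene name rule and arrays used.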

Additional observations from a re-analysis of the deposited data

How the results depend on the processing

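The count of 1.5-fold lower P450 genes was 4 under all 16 settings, and the count of 2-fold lower genes was 2 or 3. Several of these settings could not reduce the 1.5-fold count, as given above. The count of 1.5-fold higher genes fell from 3 to 1 with cyclic loess, with quantile normalisation, with the level filter at the upper quartile of all genes and on the technical replicate arrays alone, and was 1 to 3 when an array was left out. It was 1, Cyp2b2, when the obese original or the lean technical replicate was dropped. At the upper quartile filter the gene left was Cyp2a1. The count of 2-fold higher genes, 1 as reported, was 0 with the level filter at the upper quartile, since Cyp2b2 lies below it, and 1 whichever array was left out. The median difference of 0.10 kept its sign. It was 0.0299 with cyclic loess, 0.14 with each array centred on its median, 0.0478 with an offset of 16, 0.0496 on the original arrays alone, 0.0591 on the technical replicate arrays alone, and 0.0514 to 0.0686 when an array was left out. The cause of these shifts was not tested. Of 624 differences of single P450 genes over these settings 592 were counted as kept, and 13 lost and 1 gained the 1.5-fold rule. A further 18 moved by more than the spread of the arrays, and 0 of those past the rule changed sign. The kept count is no measure of stability. The level filter, gap, probe set and gene name settings left every P450 difference as it was. A gene that stayed past the rule counted as kept however far its value moved. A gene outside the rule could change sign and still count as kept. No paired analysis was possible because each phenotype is 1 pool and the result comes from no test. Signal over background is unknown, so genes below the level filter have no firm fold.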
